A study of Mus musculus with 4 samples.

Results

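Interferon-stimulated genes were examined as a group of 34 genes in thymic invariant natural killer T (iNKT) cells with and without a conditional deletion of Mettl3. The genes are a set list of transcripts known to be induced by interferons, found by symbol among the 53715 gene IDs of the count table. They were divided into 25 genes of the type I interferon set and 9 interferon-gamma GTPases (the Gbp genes, Igtp, Irgm1, Irgm2 and Ifi47). Irf1 and Bst2, counted here in the type I set, also respond to interferon-gamma. All 34 were counted in every library, and all 34 passed the filter on low counts, which left 14185 genes to be tested.

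The cells were mouse thymocytes sorted as live, CD1d tetramer-binding and TCRβ+, from C57BL/6 animals aged 6 to 8 weeks. One group was wild type (WT, 2 libraries) and the other carried the genotype Mettl3fl/flCD4-cre, here called Mettl3 KO (2 libraries). Cre driven by Cd4 acts from the CD4+CD8+ thymocyte stage onwards, so conventional T cells of these mice carry the deletion as well. Nothing in the labels tells whether separate animals gave the 2 libraries of a genotype. The p-values below therefore set the difference between genotypes against a spread estimated from these libraries, and that spread may be technical. Total counts were 24374587 to 28316016 per library. Mettl3 itself was at 92.2 and 123.6 CPM (counts scaled to library size) in WT and at 78.1 and 91.4 CPM in Mettl3 KO, so its log2 fold change was -0.35, with an SE of 0.19, and was not called (edgeR adjusted p = 0.357). Transcript from exons outside the floxed part still counts, so this level does not settle how far the allele was deleted.

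Type I interferons signal through the receptor chains IFNAR1 and IFNAR2 and the kinases JAK1 and TYK2 to a complex that contains STAT2 and IRF9 and binds the interferon-stimulated response element (ISRE) of its target genes. Interferon-gamma signals through IFNGR1 and IFNGR2, JAK1 and JAK2 to gamma-activated sites (GAS) in its target genes, and it also induces IRF1, which binds ISRE-like sequences. The guanylate-binding proteins (Gbp) and the immunity-related GTPases (Igtp, Irgm1, Irgm2, Ifi47) act on membranes of vacuoles that hold intracellular pathogens. NKT1 cells, a major thymic iNKT subset in C57BL/6 mice, are themselves producers of interferon-gamma.

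The promoters of 6 members are shown because they pair genes that differed between the genotypes with relatives that did not pass the test. Ifit3, Rsad2, Cmpk2 and Gbp3 were the members called lower in Mettl3 KO, Gbp2 was the GTPase with the log2 fold change nearest 0, and Ifit1, chosen after its values were seen, is a neighbour of Ifit3. Each line is the RefSeq promoter window on GRCm38.p6, 250 bases before to 50 bases after the start of transcription, 5′ to 3′ on the strand of the gene. Capitals mark matches to the ISRE core, GAAANNGAAA on either strand.
Ifit3 (chr19:34583279-34583578, plus strand): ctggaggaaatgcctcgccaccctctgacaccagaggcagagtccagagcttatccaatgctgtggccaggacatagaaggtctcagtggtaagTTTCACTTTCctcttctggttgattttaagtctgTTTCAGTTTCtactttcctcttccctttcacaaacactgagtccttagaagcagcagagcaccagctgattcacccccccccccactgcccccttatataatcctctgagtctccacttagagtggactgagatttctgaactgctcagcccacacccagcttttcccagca
Ifit1 (chr19:34640639-34640938, plus strand): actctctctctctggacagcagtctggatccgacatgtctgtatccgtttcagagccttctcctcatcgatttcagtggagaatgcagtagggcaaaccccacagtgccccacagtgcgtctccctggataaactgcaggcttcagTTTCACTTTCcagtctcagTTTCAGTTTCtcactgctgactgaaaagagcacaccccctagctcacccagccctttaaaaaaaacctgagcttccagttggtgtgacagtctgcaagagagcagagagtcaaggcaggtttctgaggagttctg
Rsad2 (chr12:26456403-26456702, minus strand): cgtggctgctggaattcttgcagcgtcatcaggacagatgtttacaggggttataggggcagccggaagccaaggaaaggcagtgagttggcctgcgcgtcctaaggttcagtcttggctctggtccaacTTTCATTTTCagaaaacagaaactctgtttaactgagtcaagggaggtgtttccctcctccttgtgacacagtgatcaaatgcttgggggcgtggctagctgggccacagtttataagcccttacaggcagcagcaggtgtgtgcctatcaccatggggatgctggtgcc
Cmpk2 (chr12:26468965-26469264, plus strand): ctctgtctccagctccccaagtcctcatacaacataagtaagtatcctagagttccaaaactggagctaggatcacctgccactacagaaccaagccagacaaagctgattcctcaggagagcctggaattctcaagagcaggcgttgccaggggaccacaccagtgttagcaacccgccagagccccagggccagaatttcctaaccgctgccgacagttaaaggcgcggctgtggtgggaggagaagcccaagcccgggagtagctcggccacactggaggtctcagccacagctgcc
Gbp3 (chr3:142559794-142560093, plus strand): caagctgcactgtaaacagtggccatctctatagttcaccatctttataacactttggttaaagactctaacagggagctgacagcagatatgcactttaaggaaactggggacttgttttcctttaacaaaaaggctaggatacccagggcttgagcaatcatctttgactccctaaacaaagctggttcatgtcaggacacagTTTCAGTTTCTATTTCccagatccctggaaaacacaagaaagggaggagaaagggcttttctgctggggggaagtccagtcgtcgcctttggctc
Gbp2 (chr3:142620413-142620712, plus strand): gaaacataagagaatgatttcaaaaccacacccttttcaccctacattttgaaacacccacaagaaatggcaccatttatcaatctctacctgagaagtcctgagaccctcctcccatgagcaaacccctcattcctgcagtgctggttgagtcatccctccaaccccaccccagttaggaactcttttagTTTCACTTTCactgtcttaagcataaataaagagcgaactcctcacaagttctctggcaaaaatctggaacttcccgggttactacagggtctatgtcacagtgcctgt
The Ifit3 and Ifit1 windows held the same pair of decamers in the same order, at 156 and 122 bases before the start in Ifit3 and at 104 and 85 bases in Ifit1. In Gbp3 the 2 matches overlap, and the Cmpk2 window held none. A second Gbp3 window, for a later start, held none either.

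Among the 26 members with a promoter window in the reference, the ISRE core was found in 7 of 18 genes of the type I set (38.9%) and in 7 of 8 GTPases (87.5%), against 3.99% of all 27018 genes with a window. The GAS core, TTCNNNGAA (its own reverse complement in form), was found in 5 of 18 (27.8%) and 4 of 8 genes, against 9.55% of all genes with a window. In Bst2 a GAS match overlaps an ISRE match. Of the 4 members called lower, all had a window, 3 held an ISRE core and 0 a GAS core; of the 22 other members with a window, 11 held an ISRE core and 9 a GAS core. These matches describe the letters in the windows and say nothing about binding.

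**Figure D1:**
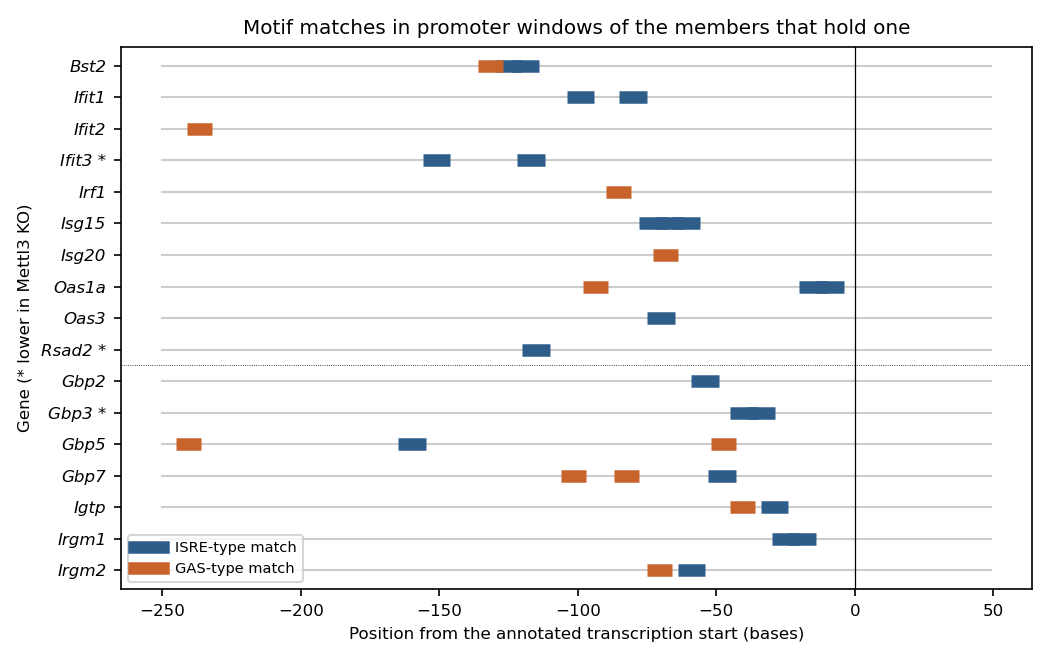
Motif matches in the promoter windows of the 17 members that hold at least 1, by position from the start of transcription in bases (0 is the first transcribed base). Blue bars are ISRE cores, orange bars are GAS cores, the dotted line parts the type I set (above) from the GTPases (below), and asterisks mark genes lower in Mettl3 KO; Ifit3 and Ifit1 show the same pair of blue bars at different distances.

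In Mettl3 KO, 3 of the 25 genes of the type I set fell and 0 rose: Ifit3, Rsad2 and Cmpk2. Of the 9 GTPases, Gbp3 fell and 0 rose. Over all genes tested, 1.51% were lower and 1.09% higher, 2.59% together (edgeR's quasi-likelihood test, Benjamini-Hochberg adjusted p under 0.05), so the called share was 12.0% in the type I set and 11.1% among the GTPases. The median log2 fold change was -0.31 in the type I set, 0.02 among the GTPases and 0.02 over all genes tested. In the type I set 22 of 25 genes had a negative log2 fold change, against 48.7% of all tested genes, while the GTPases divided into 4 negative and 5 positive. All 6 conventional reference genes, given further below, were negative as well, with a median of -0.23. Both Mettl3 KO libraries lay below both WT libraries in 16 of the 25 type I genes and in 2 of the 9 GTPases, against 24.9% of all tested genes. They lay above both in 1 type I gene and 2 GTPases, against 25.4% of all tested genes. At an unadjusted p under 0.05, 8 type I genes were lower and 0 higher, and 2 GTPases were lower and 2 higher, against 9.69% lower and 10.5% higher of all tested genes. DESeq2 called 4 type I genes and 2 GTPases lower and none of the 34 higher, where it called 4.77% of all genes lower and 4.69% higher; limma voom called the same 3 type I genes lower and 0 GTPases, with 1.25% of all genes lower and 0.74% higher. Whether the 2 sets differ from each other was not tested.

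**Figure D2:**
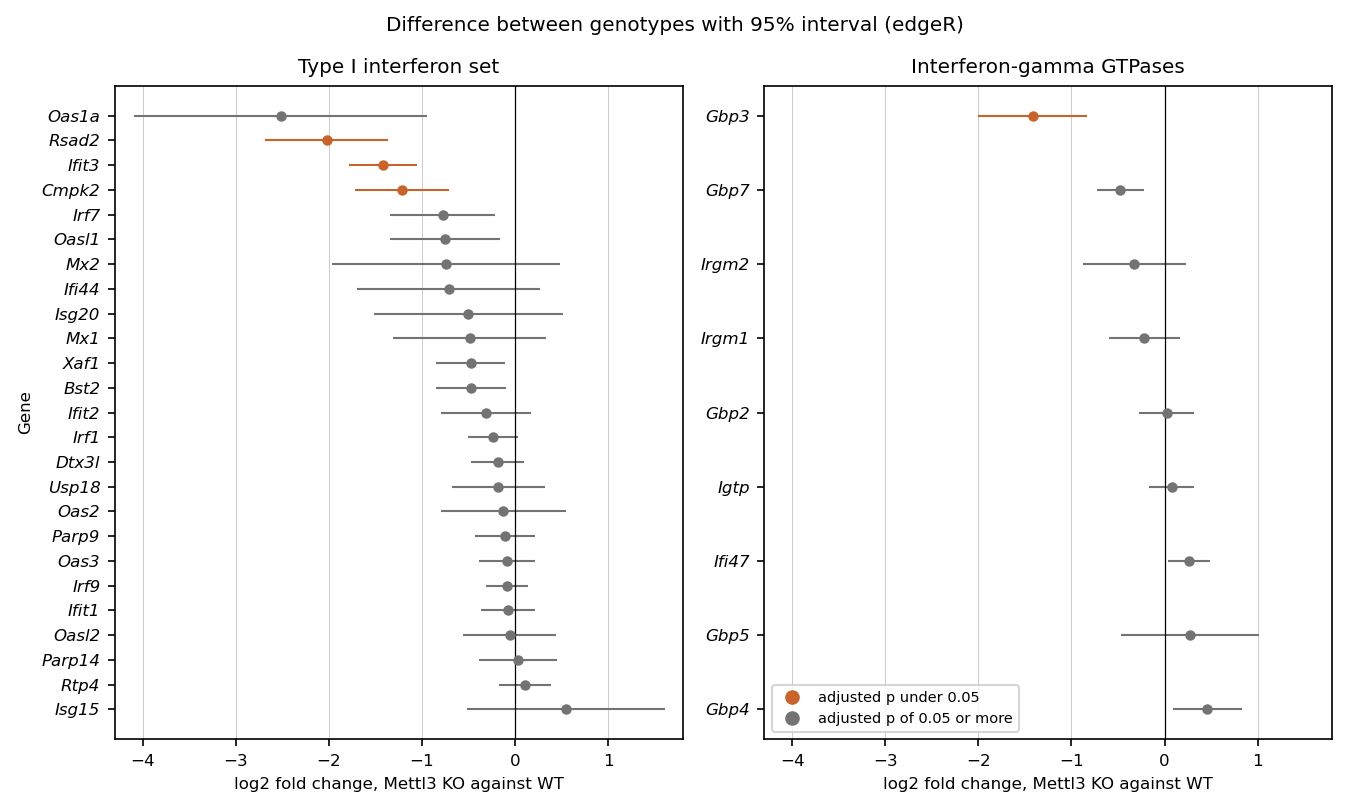
Log2 fold change of each member, Mettl3 KO against WT, with its 95% interval from edgeR (2 libraries per genotype), type I set on the left and GTPases on the right. Orange marks adjusted p under 0.05: Rsad2, Ifit3 and Cmpk2 at -2.03, -1.42 and -1.22, and Gbp3 at -1.42; most other intervals include 0.

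Most of the calls were lost when a single library was dropped. When 1 library was left out, the type I set kept at most 1 call and the GTPases at most 1. Ifit3 passed without WT replicate 1 (edgeR adjusted p = 0.0452) or WT replicate 2 (0.0412) but not without Mettl3 KO replicate 1 (0.0622) or replicate 2 (0.0828). Gbp3 passed without WT replicate 1 (0.0393) alone, at 0.131 without WT replicate 2 and at 0.160 and 0.187 without Mettl3 KO replicates 1 and 2. Rsad2 and Cmpk2 failed to pass whichever of the 4 libraries was dropped, the adjusted p otherwise lying between 0.0613 and 0.114 for Rsad2 and between 0.0718 and 0.196 for Cmpk2. In these fits the log2 fold change ran from -2.42 to -1.72 for Rsad2, from -1.54 to -1.31 for Ifit3, from -1.39 to -1.02 for Cmpk2 and from -1.68 to -1.13 for Gbp3.

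Rsad2 encodes viperin, a radical SAM enzyme that makes a chain-terminating nucleotide, and Cmpk2 encodes the mitochondrial nucleotide kinase that supplies its substrate. The genes are neighbours on GRCm38 chromosome 12, with Rsad2 at 26442746 to 26456452 on the minus strand and Cmpk2 at 26469204 to 26479837 on the plus strand, 12751 bases apart. Rsad2 was at 45.0 and 51.9 CPM in WT and at 9.09 and 14.7 CPM in Mettl3 KO. The genotypes did not overlap, and the level was 4.07-fold lower in Mettl3 KO (log2 fold change -2.03, SE 0.28; edgeR adjusted p = 0.0162). Cmpk2 was at 75.2 and 57.8 CPM in WT and at 29.4 and 27.96 CPM in Mettl3 KO. It too showed no overlap and was 2.32-fold lower (log2 fold change -1.22, SE 0.21; edgeR adjusted p = 0.0370).

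The Ifit genes encode tetratricopeptide proteins that bind viral or incompletely capped RNA. Of the 3 members 1 fell, against 1.51% of all tested genes. Ifit3 (GRCm38 chromosome 19, 34583531 to 34588731, plus strand) was at 150.7 and 137.2 CPM in WT and at 58.1 and 49.6 CPM in Mettl3 KO. Its fall was 2.67-fold, with a log2 fold change of -1.42 (SE 0.16, 95% interval -1.79 to -1.05; edgeR adjusted p = 0.00755). Ifit1, on the same strand of the same cluster, was at 150.7 and 160.5 CPM in WT and at 143.5 and 150.7 CPM in Mettl3 KO. The libraries nearly met, and the log2 fold change was -0.08 (95% interval -0.37 to 0.21; edgeR adjusted p = 0.781). Ifit2 was at 47.5 and 60.3 against 39.7 and 46.9 CPM (log2 fold change -0.31, edgeR adjusted p = 0.462). The ratio of Ifit3 to Ifit1 counts within a library, which needs no scaling between libraries, was 1.0 and 0.855 in WT and 0.405 and 0.329 in Mettl3 KO. This ratio restates the values above, since both genes were chosen with those values known. An exact permutation test of the ratio gave p = 0.333. With 2 libraries against 2 that test cannot give a lower value, so it decides nothing here.

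Of the 50-base words in Ifit3 transcripts, 51.2% also occur in its near-identical copy Ifit3b, so reads of the 2 genes are partly interchangeable and the Ifit3 value is uncertain in that respect. Ifit3b was itself lower, at 56.3 and 37.2 CPM in WT and 16.2 and 15.0 CPM in Mettl3 KO (edgeR adjusted p = 0.0403). With the 2 genes counted as 1, an alternative chosen after seeing the data, the sum was 5819 and 4382 counts in WT and 1913 and 1611 in Mettl3 KO. Its log2 fold change was -1.46 (edgeR adjusted p = 0.0068).

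**Figure D3:**
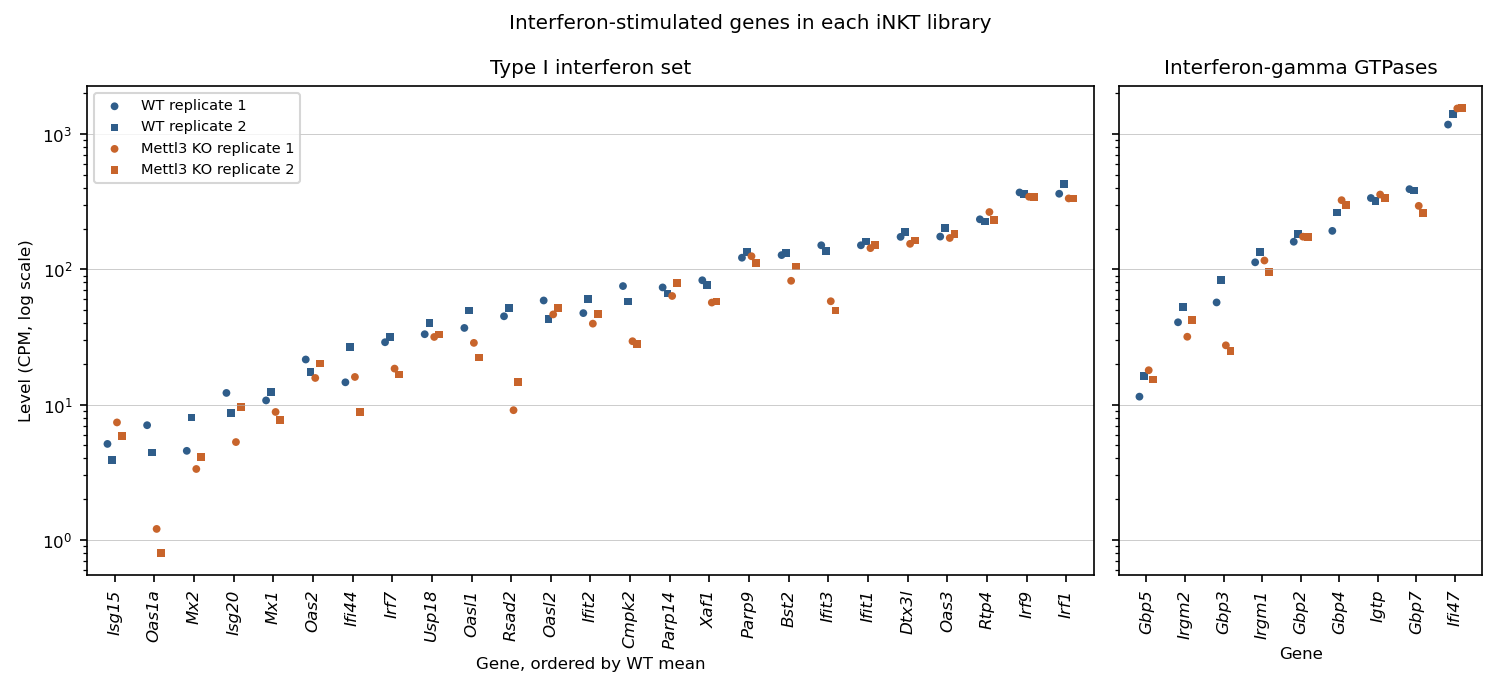
Level of each member in each library in CPM on a log scale, genes ordered by their WT mean within the type I set (left) and the GTPases (right). Blue is WT and orange Mettl3 KO, circles are replicate 1 and squares replicate 2; the orange points lie clearly below the blue for Oas1a, Rsad2, Cmpk2, Ifit3 and Gbp3, and close to them for genes such as Ifit1, Irf9, Gbp2 and Igtp.

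The 2′-5′ oligoadenylate synthetase (OAS) genes encode sensors that respond to double-stranded RNA by activating RNase L, and Oasl1 and Oasl2 encode related proteins with ubiquitin-like domains. By edgeR 0 of these 5 genes were called, and 2 were lower at an unadjusted p under 0.05, against 9.69% of all tested genes. DESeq2 called Oas1a (adjusted p = 0.0270), and limma voom called none. Oas1a had the lowest log2 fold change of the 34 members, -2.52 (SE 0.68, 95% interval -4.10 to -0.94; edgeR adjusted p = 0.101), on few counts. It had 198 and 111 counts in WT and 31 and 20 in Mettl3 KO, at 7.04, 4.42, 1.20 and 0.802 CPM. The genotypes did not overlap, but the WT libraries also differed from each other. Oas1a shares 57.6% of its 50-base words with Oas1g, and with the 2 summed the log2 fold change was -2.30 (edgeR adjusted p = 0.119). Oasl1 was at 36.9 and 49.6 CPM in WT and at 28.6 and 22.3 CPM in Mettl3 KO (log2 fold change -0.76, SE 0.25; edgeR adjusted p = 0.155). Oas3, the most counted OAS gene, was at 174.7 and 201.1 against 170.6 and 183.7 CPM, and its libraries overlapped (log2 fold change -0.08, 95% interval -0.39 to 0.22). Oas2 at -0.13 and Oasl2 at -0.06 also overlapped, and the sign of Oas2, Oas3 and Oasl2 turned when single libraries were left out.

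Of the 3 interferon regulatory factors, 0 were called by edgeR, DESeq2 or limma voom. At an unadjusted p under 0.05, where 9.69% of all tested genes were lower, 1 of the 3 was lower. That was Irf7, which amplifies type I interferon production, at 28.9 and 31.5 CPM in WT and 18.5 and 16.7 CPM in Mettl3 KO (log2 fold change -0.78, SE 0.24, 95% interval -1.34 to -0.21; edgeR adjusted p = 0.135). The groups did not overlap, and the difference exceeded that between replicates. Irf1 was at 362.3 and 427.9 against 334.5 and 333.9 CPM (log2 fold change -0.24, edgeR adjusted p = 0.292). Irf9, which encodes a DNA-binding subunit of the complex at the ISRE, was at 370.3 and 359.8 against 344.1 and 344.8 CPM, with a narrow interval of -0.31 to 0.14 around a log2 fold change of -0.08.

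Isg15 encodes a ubiquitin-like modifier and Usp18 the protease that removes it and also restrains IFNAR2. Isg15 was scarce and was the member of the type I set that lay higher in both Mettl3 KO libraries, at 5.12 and 3.90 CPM in WT and 7.38 and 5.86 CPM in Mettl3 KO (log2 fold change 0.55, SE 0.46; edgeR adjusted p = 0.567). Usp18 was at 33.1 and 40.2 against 31.6 and 32.9 CPM (log2 fold change -0.18, edgeR adjusted p = 0.708). Parp9 and Dtx3l, whose products form an ADP-ribosyltransferase and ubiquitin ligase pair, had log2 fold changes of -0.11 and -0.19, and Parp14, another ADP-ribosyltransferase, 0.03 (edgeR adjusted p = 0.729, 0.452 and 0.945). The Parp14 value turned to -0.01 with the trend of counts with gene length removed. Parp9 and Dtx3l overlap by 458 exon bases on opposite strands, and reads there cannot be assigned without strand.

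Bst2, which encodes tetherin, a protein that holds budding virions at the membrane, was at 127.5 and 132.4 CPM in WT and at 82.3 and 105.2 CPM in Mettl3 KO. The groups did not overlap, but the log2 fold change of -0.47 did not pass (SE 0.16; edgeR adjusted p = 0.162). Xaf1, an antagonist of XIAP, was similar at 83.1 and 76.5 against 56.8 and 57.9 CPM (log2 fold change -0.48, SE 0.16; edgeR adjusted p = 0.155). Rtp4, a chaperone of receptor transport, was at 234.4 and 225.6 against 265.3 and 231.0 CPM and overlapped (log2 fold change 0.11, edgeR adjusted p = 0.673). The scarce members were imprecise. Mx1 and Mx2, dynamin-like antiviral GTPases, were at 7.66 to 12.5 and 3.34 to 8.04 CPM, with log2 fold changes of -0.49 (95% interval -1.31 to 0.34) and -0.74 (-1.97 to 0.49). C57BL/6 mice carry a defective Mx1 allele, so its transcript does not stand for a working protein. The annotation lists Mx2 as a polymorphic pseudogene, so the Mx2 transcript may not stand for a working protein either. Isg20, an exonuclease gene, and Ifi44 had log2 fold changes of -0.50 and -0.71 with overlapping libraries (edgeR adjusted p = 0.581 and 0.400).

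Among the Gbp genes, 1 of 5 fell and 0 rose, against 1.51% lower and 1.09% higher of all tested genes. DESeq2 made 1 lower call beyond Gbp3 (Gbp7), and limma voom made 0 calls (Gbp3 adjusted p = 0.0503). Gbp3 (GRCm38 chromosome 3, 142560026 to 142573209, plus strand) was at 56.9 and 83.3 CPM in WT and at 27.4 and 24.8 CPM in Mettl3 KO. This was 2.67-fold lower with no overlap (log2 fold change -1.42, SE 0.25, 95% interval -2.0 to -0.83; edgeR adjusted p = 0.0366). Gbp7, which lies 9876 bases from Gbp3 in the same cluster, was at 391.8 and 382.7 against 294.8 and 262.6 CPM. Its groups did not overlap, and its log2 fold change of -0.47 (SE 0.11) had an edgeR adjusted p of 0.0659, of 0.0342 among genes at 5 CPM or more in 2 libraries and of 0.00149 by DESeq2. Gbp7 shares 10.5% of its 50-base words with a processed pseudogene inside it, Gm43802, and 3.75% of the words of Gbp3 occur in Gbp7.

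Gbp2, Gbp4 and Gbp5 did not share the direction of Gbp3. Gbp2 was at 160.0 and 182.3 CPM in WT and 174.4 and 173.1 CPM in Mettl3 KO (log2 fold change 0.02, 95% interval -0.27 to 0.32), and its sign turned without WT replicate 1. Gbp4 was at 192.5 and 263.2 against 324.7 and 299.99 CPM, higher in both Mettl3 KO libraries, with a log2 fold change of 0.46 that did not pass (SE 0.16; edgeR adjusted p = 0.167). Gbp5 was at 11.5 and 16.2 against 17.95 and 15.3 CPM and overlapped (log2 fold change 0.28, edgeR adjusted p = 0.692). The ratio of Gbp3 to Gbp2 counts was 0.356 and 0.457 in WT and 0.157 and 0.143 in Mettl3 KO. Both genes were chosen for their fold changes, so the ratio restates them. Its exact permutation test (p = 0.333) could give no lower value with 2 libraries against 2. The ratio of Gbp3 to Gbp7 was 0.145 and 0.218 against 0.0931 and 0.0946, also without overlap.

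Of the 4 immunity-related GTPases, 0 were called by edgeR, DESeq2 or limma voom. At an unadjusted p under 0.05, where 10.5% of all tested genes were higher, 1 of the 4 was higher. That gene, Ifi47, was the most abundant of the 34 members, at 1176 and 1409 CPM in WT and 1547.9 and 1553.5 CPM in Mettl3 KO. The groups did not overlap, with a log2 fold change of 0.26 and a 95% interval from 0.03 to 0.49 (SE 0.10; edgeR adjusted p = 0.191). Igtp was at 336.8 and 320.6 against 357.4 and 335.6 CPM, and Irgm1 at 112.8 and 133.8 against 116.3 and 95.3 CPM. Both overlapped, at log2 fold changes of 0.08 (95% interval -0.16 to 0.31) and -0.22 (-0.60 to 0.17). Irgm2 was at 40.6 and 52.6 against 31.8 and 42.5 CPM (log2 fold change -0.33, edgeR adjusted p = 0.502). Igtp and Irgm2 start close together on chromosome 11 and share 162 exon bases on the same strand.

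Per length of exon sequence, the order of the members was led by a GTPase. In WT, Ifi47 stood at 522.7 CPM per kilobase, followed by Igtp (162.6), Bst2 (143.9), Rtp4 (107.9) and Irf1 (99.4). The lowest were Mx2 (1.74), Gbp5 (2.09), Oas1a (3.04) and Mx1 (3.06). Of the genes that fell, Ifit3 was the 6th at 82.5 CPM per kilobase, Gbp3 the 15th at 21.5, Cmpk2 the 19th at 16.0 and Rsad2 the 23rd at 11.2. In Mettl3 KO they held ranks 11, 22, 25 and 29. In sum, the type I set made up 2424 and 2525 CPM in WT and 2059 and 2082 CPM in Mettl3 KO, and the GTPases 2479 and 2844 against 2893 and 2803 CPM, with Ifi47 more than any other gene in the latter sum.

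The difference between genotypes was larger than the difference between replicates of either genotype in 13 of 25 type I genes and in 4 of 9 GTPases, against 36.6% of all tested genes. Ifit3 and Irf7 were clear cases, with replicate differences of at most 0.23 and 0.15 in log2 CPM. Isg20, Ifi44 and Mx2 were the reverse, with replicate differences of up to 0.86, 0.87 and 0.82. WT replicate 2 was above WT replicate 1 in 7 of 9 GTPases, with a median difference of 0.26 in log2 CPM, and in 14 of 25 type I genes, with a median of 0.09, against 49.1% of all tested genes.

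**Figure D4:**
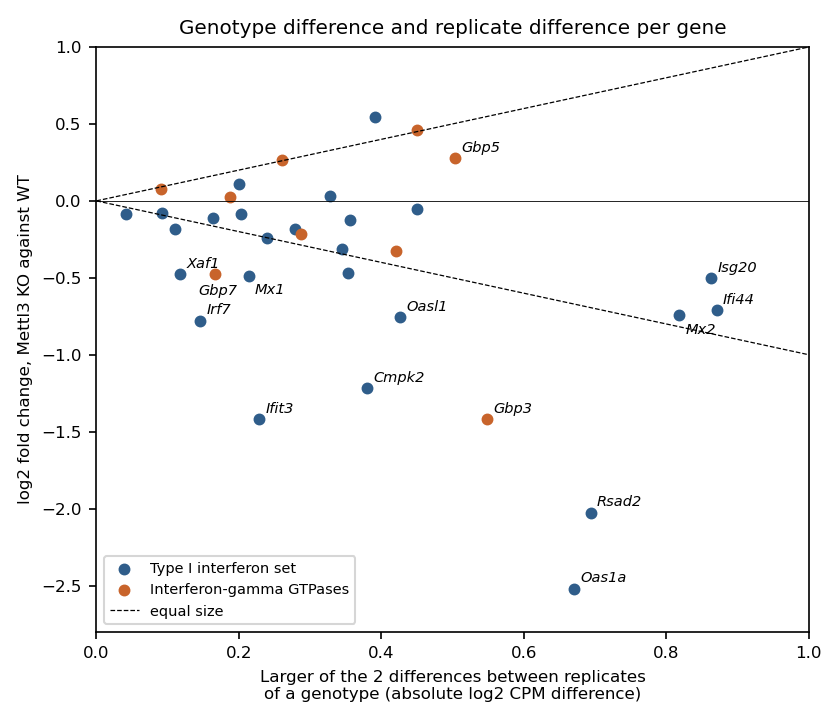
Log2 fold change between genotypes (vertical) against the larger of the 2 absolute differences in log2 CPM between replicates of a genotype (horizontal), 1 point per member. Dashed lines mark equal size; Ifit3, Cmpk2, Rsad2, Oas1a and Gbp3 lie far below the lower line, and Isg20 and Ifi44 lie between the lines at the right.

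Upstream of these genes, the interferon-gamma arm differed between the genotypes. Of 21 interferon ligand genes, 18 had no count in any library and Ifng alone passed the filter. Ifng was at 27.4 and 33.4 CPM in WT and at 8.71 and 11.6 CPM in Mettl3 KO, 2.99-fold lower (log2 fold change -1.58, SE 0.29; edgeR adjusted p = 0.0430). Dropping any single library ended the call (adjusted p = 0.0956 to 0.217), as did fits with limma voom (0.0507), with no filter on low counts (0.0563) or with the gene-length trend removed (0.0624). Ifnb1 had no count in any library, where 3 counts correspond to 0.107 to 0.120 CPM.

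Among 9 receptor, kinase and STAT genes, 1 fell and 1 rose, against 1.51% lower and 1.09% higher of all tested genes. Ifngr1, the ligand-binding chain for interferon-gamma, was at 1069 and 1683 CPM in WT and at 403.8 and 395.6 CPM in Mettl3 KO (3.44-fold lower; edgeR adjusted p = 0.00746; SE of the log2 fold change 0.20). Ifngr2, the signalling chain, moved the other way, from 17.8 and 22.4 to 58.1 and 49.6 CPM (2.69-fold higher; edgeR adjusted p = 0.0275; SE of the log2 fold change 0.23). Neither gene overlapped between the genotypes, and the ratio of Ifngr1 to Ifngr2 counts was 60.1 and 75.1 in WT and 6.95 and 7.98 in Mettl3 KO. Ifngr1 did not pass without Mettl3 KO replicate 1 (0.0750) or replicate 2 (0.0831), and Ifngr2 in none of the 4 such fits (0.102 to 0.167). Ifnar2 was at 87.6 and 135.5 against 59.6 and 58.1 CPM (log2 fold change -0.92, edgeR adjusted p = 0.0866), and it passed without WT replicate 1 (0.0443) and with DESeq2 (0.0040). Ifnar1 at -0.01, Jak2 at -0.17 and Stat2 at 0.02 overlapped, and Ifnar1 turned to 0.04 with total-count scaling. Jak1 had a log2 fold change of -0.31 and Tyk2 of -0.35 (edgeR adjusted p = 0.165 and 0.285).

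Of 12 inhibitors of interferon signalling, 2 fell and 0 rose, against 1.51% lower and 1.09% higher of all tested genes. At an unadjusted p under 0.05, 0 were higher, against 10.5% of all tested genes. Socs3, which blocks JAK kinases at cytokine receptors, was at 71.3 and 59.9 CPM in WT and at 15.1 and 19.8 CPM in Mettl3 KO (3.77-fold lower; edgeR adjusted p = 0.0101; SE of the log2 fold change 0.23). Ptpn6, which encodes the phosphatase SHP-1, fell 1.4-fold (edgeR adjusted p = 0.0463), a call also lost with no filter on low counts (0.0628), with DESeq2 size factors (0.0503) and with the gene-length trend removed (0.0637). Next by p came the phosphatase gene Ptpn11 at -0.44 and Irf2, a repressor that competes with IRF1, at 0.35 (edgeR adjusted p = 0.296 and 0.389). With single libraries left out, Socs3 had adjusted p of 0.0503 to 0.0867 and did not pass, and Ptpn6 passed only without WT replicate 1. Socs1, the inhibitor most tied to interferon-gamma, was at 185.2 and 251.5 against 181.5 and 195.0 CPM and overlapped (edgeR adjusted p = 0.527); it was singled out after its values were seen, and its sign turned without WT replicate 2.

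Of 20 tested nucleic acid sensors and adaptors, 2 fell and 0 rose, against 1.51% lower and 1.09% higher of all tested genes. Ddx58, which encodes the RNA sensor RIG-I and is interferon-induced itself, fell 1.87-fold from 219.0 and 233.4 to 125.2 and 116.2 CPM (edgeR adjusted p = 0.0145). Samhd1, which encodes a dNTP hydrolase, fell 1.8-fold (edgeR adjusted p = 0.0287). Ifih1, which encodes the sensor MDA5, had a log2 fold change of -0.59 and Rnaseh2c, an RNase H2 subunit gene, of -0.73 (edgeR adjusted p = 0.101 and 0.138). Ddx58 passed without WT replicate 1 but not without WT replicate 2 (0.0799), Mettl3 KO replicate 1 (0.112) or replicate 2 (0.146), and Samhd1 lost its call in each of the 4 fits (0.092 to 0.194).

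Other interferon-stimulated genes were read from a second list that holds none of the 34. Of 48 tested, 12 fell (25%) and 0 rose, against 1.51% lower and 1.09% higher of all tested genes. The median log2 fold change was -0.40, and 37 had a negative value, against 48.7% of all tested genes. DESeq2 called 15 lower and 1 higher, where it called 4.77% and 4.69% of all genes. With limma voom 10 were lower and 0 higher (1.25% and 0.74% of all genes). In edgeR 1 was higher at an unadjusted p under 0.05, against 10.5% of all tested genes. Ifi213, of the DNA-binding HIN-200 family, fell 2.45-fold from 265.2 and 294.0 to 108.7 and 119.8 CPM (edgeR adjusted p = 0.00521). Slfn1, a Schlafen gene, fell 2.24-fold (adjusted p = 0.00746), Ifit1bl1, a relative of Ifit1, 1.95-fold (adjusted p = 0.0122), and Ddx58 stands on this list as well. Ifi204, singled out after its values were seen, fell 11.3-fold, from 16.9 and 17.0 to 1.75 and 1.24 CPM (edgeR adjusted p = 0.0138). Dropping WT replicate 1 left 7 of the list lower, and dropping WT replicate 2 left 2. Dropping Mettl3 KO replicate 1 left 0, and dropping Mettl3 KO replicate 2 left 2. Ifi213 and Slfn1 did not pass without Mettl3 KO replicate 1 (0.0655 and 0.0779), and Slfn1 and Ifit1bl1 did not without Mettl3 KO replicate 2 (0.0747 and 0.0921). Ifit1bl1 also missed without WT replicate 2 (0.0718) and Mettl3 KO replicate 1 (0.123), and Ifi204 missed with any library left out (0.0724 to 0.116).

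Other interferon-gamma induced genes were not called. Of 23 tested, edgeR called 0, with 4 lower and 2 higher at an unadjusted p under 0.05. At that unadjusted p, 9.69% of all tested genes were lower and 10.5% higher. DESeq2 called 4 lower and 2 higher, where it called 4.77% and 4.69% of all genes, and limma voom called 0. The median log2 fold change was -0.21, the value of Socs1, which stands on this list as well as among the inhibitors. Irf8, a transcription factor gene, had a log2 fold change of -0.99 and Gbp9 of -0.61, the immunoproteasome gene Psmb10 of -0.62 and the peptide transporter gene Tap2 of 0.48 (edgeR adjusted p = 0.0512, 0.0630, 0.0635 and 0.0565). Among genes at 5 CPM or more in 2 libraries all 4 passed (0.0253, 0.0345, 0.0367 and 0.0246).

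**Figure D5:**
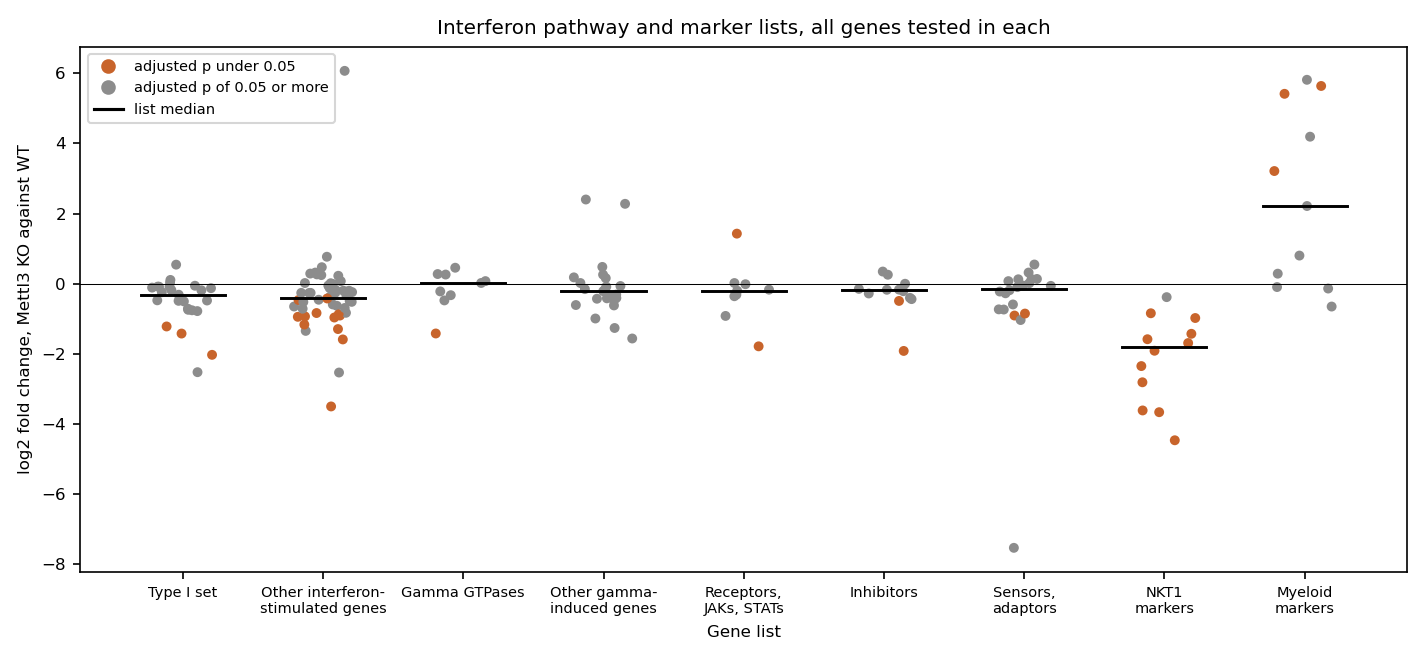
Log2 fold change, Mettl3 KO against WT, of every tested gene in the 2 member sets, the other interferon lists and 2 marker lists, with orange for adjusted p under 0.05 and a black bar at the list median. The medians are -0.31 in the type I set, -0.40 in the other interferon-stimulated genes, 0.02 in the GTPases and -0.21 in the other gamma-induced genes, beside -1.8 for NKT1 markers and 2.22 for myeloid markers.

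Some of the lists of cell type markers differed between the genotypes as well. Beside the counts below, 1.51% of all tested genes were lower and 1.09% higher. Of the 6 defining T and iNKT cell genes listed, Trac, Cd3e and Zbtb16 were abundant in every library, and 1 (Trac) fell. The log2 fold changes of the 6 ran from -0.58 to 0.65, with 3 positive and 3 negative. Of 12 NKT1 markers, 11 fell, among them Ifng, the same gene as the ligand above. The summed level of the 12 was 5143 and 6622 CPM in WT against 2662 and 2592 CPM in Mettl3 KO. Of 8 NKT17 markers 7 also fell, and 2 of 8 NKT2 markers (Ccr7 and Il6ra) rose. The 15 myeloid markers summed to 57.7 and 83.6 CPM in WT and 419.2 and 474.8 CPM in Mettl3 KO, with Fcgr1 at 0 in 3 libraries. Of 11 tested, 3 were higher. The log2 fold changes were uneven, 8 positive and 3 negative, from -0.65 to 5.81. Plasmacytoid dendritic cell markers, of a cell type rich in Irf7 and Bst2, summed to 147.8 to 177.3 CPM in WT and 241.5 to 259.1 CPM in Mettl3 KO. Of 8 tested, 2 were higher (Tcf4 and Clec10a), and 7 had a positive and 1 a negative log2 fold change. Siglech was at 0.0711 and 1.27 against 4.24 and 9.91 CPM, a small part of these sums. B cell markers summed to 10.5 and 17.5 against 36.1 and 26.2 CPM with Pax5 at 0. Of these, 0 of 5 tested were called, and all 5 had a positive log2 fold change. CD4+CD8+ thymocyte markers summed to 306.0 and 393.7 against 564.5 and 498.6 CPM. Here 0 of 8 tested were called, and all 8 had a positive log2 fold change. NK cell markers summed to 577.6 and 692.5 against 231.0 and 225.3 CPM, of which Klra9, the 1 of 4 tested genes called lower, made up 572.2 and 687.0 against 224.8 and 219.6 CPM; 2 of the 4 had a positive and 2 a negative log2 fold change, and Eomes was at 0 in WT and at 0.466 and 0.883 CPM in Mettl3 KO. Stromal markers summed to 61.2 and 54.3 against 83.4 and 86.5 CPM, most of it Pecam1, with Psmb11 at 0. Of the 6 tested genes 0 were called, 3 were positive and 3 negative. The part of these shifts in the interferon results was not tested, and in bulk libraries fewer cells of a type and less RNA per cell cannot be told apart. Of 6 conventional reference genes 1 fell, B2m (edgeR adjusted p = 0.0484), which interferons also induce, and their median log2 fold change was -0.23.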

How the data were processed

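RNA of sorted thymic iNKT cells was sequenced in 4 Smart-seq2 libraries, which do not mark strand. The authors deposited raw counts of reads for each Ensembl gene ID, with 1 column per library. FastQC 0.11.5, STAR 2.6.0a, HTSeq 0.6.1, DESeq2 1.18.1 and build mm10 are named, per the submitters' processing notes; the sources used here do not give the annotation, strand setting or filters. IDs were matched to GENCODE M21 of GRCm38 (53620 of 53715, and 51464 with the same version).

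Counts were filtered with filterByExpr, scaled by TMM and compared in R 4.3.3 with edgeR 4.0.16 (glmQLFit, glmQLFTest, legacy=FALSE, robust=TRUE; 2 residual degrees of freedom), two-sided, adjusted by Benjamini-Hochberg over all genes, called under 0.05. Standard errors were derived from each log2 fold change and its F statistic (their quotient after taking the root of F). limma 3.58.1 voom, DESeq2 1.42.0, other scalings and filters, a replicate term, a length correction and leaving out each library were alternatives. The test was checked on simulated counts. Without molecular identifiers, reads are not independent molecules, so floors cover counting error only.

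The members and lists were chosen with earlier results of these data known. The rule named all 34 members, Mettl3, every gene of lists of 9 or fewer and up to 4 genes with the smallest p of longer lists, and for sequences the called members plus the member of each set nearest 0. The text departs from it in 3 ways: marker lists are given by counts and sums with genes picked after their values were seen, Socs1 and Ifi204 were added, and Ifit1 stands for Parp14, which had no promoter window. Values of some listed genes are not reported here. Replicates of a genotype differed beyond counting noise (chi-square per degree of freedom 45.7 in WT and 28.7 in Mettl3 KO). Words of 50 bases were compared across GENCODE transcripts on both strands; the read length was unknown. Of the members, 26 had a RefSeq promoter window.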

Additional observations from a re-analysis of the deposited data

How the results depend on the processing

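With 2 libraries per genotype, fewer genes were called whenever 1 library was left out. The 4 members called lower kept a negative log2 fold change in each such fit. Such fits have fewer libraries to test with, so a lost call does not show that 1 library drove it. Leaving out 1 library gave 26 to 132 lower and 13 to 40 higher genes over the whole table, against 214 and 154 with all, 0 to 1 lower in the type I set, 0 to 1 among the GTPases and 0 to 7 on the list of other interferon-stimulated genes; the type I median ran from -0.37 to -0.20 and the GTPase median from -0.08 to 0.04. These fits take the single remaining library of a genotype to be as variable as the other genotype's. The shared replicate numbers do not pair the samples by any label, and deviations of same-numbered libraries correlated at -0.01; the replicate block left 26 lower and 7 higher genes, and 0 lower in the type I set, the GTPases and the other interferon-stimulated genes.

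With no filter on low counts 93 genes were higher. At 5 CPM or more in 2 libraries 392 genes were lower and 335 higher, 2 GTPases were lower, the type I median was -0.23 over 23 genes (Mx2 and Oas1a drop out), and 3 other gamma-induced genes were lower and 2 higher. DESeq2 called 676 genes lower and 665 higher, 2 GTPases lower, 4 other gamma-induced genes lower and 2 higher, and 1 other interferon-stimulated gene higher. limma voom called 0 GTPases, and total-count scaling 1 other gamma-induced gene higher. Parp14 turned to -0.0055 with the gene-length trend removed and Ifnar1 to 0.041 with total-count scaling. Signs also turned with single libraries left out, over ranges of -0.31 to 0.045 for Oas2, -0.19 to 0.016 for Oas3, -0.26 to 0.18 for Oasl2, -0.14 to 0.19 for Parp14, -0.080 to 0.11 for Gbp2, -0.16 to 0.12 for Ifnar1, -0.65 to 0.59 for Jak2, -0.13 to 0.17 for Stat2 and -0.43 to 0.020 for Socs1. Apart from the smaller number of genes tested at 5 CPM and of libraries when 1 is left out, the cause was not tested. The stricter GAS core, TTCCNGGAA, was in 11.1% of type I and 25% of GTPase windows.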
